A study of Caenorhabditis elegans with 4 samples.

Results

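The regions described here are those REC-8 binding regions of the Caenorhabditis elegans X chromosome that lie to the right of 5.9 Mb, which is to say its centre and its right arm. They were the rows of the series-level peak list on X with a midpoint above position 5900000, and they numbered 744 of 7283 regions in the series, or 10.2%. The centre, up to position 11800000, held 334 of them and the right arm 410. The remaining left part of X held 360 regions and the autosomes together held 6176. REC-8 was mapped by chromatin immunoprecipitation and sequencing with an affinity-purified rabbit polyclonal antibody (REC-8 SDQ3953) in 2 ChIP libraries, and 2 further libraries were made from input DNA. Both kinds came from frozen and ground hermaphrodites of the strain fem-2(b245), genotype fem-2(b245)III, at 20 °C. All libraries shared a treatment with the crosslinker EGS for 20 min and with EGS and formaldehyde for 10 min. The labels give the stage as a young adult with a germline, while the growth protocol speaks of gravid animals. All libraries carry the fem-2 allele, whole animals were used and no other genotype, stage or antibody was included, so the comparisons are between parts of the chromosome and between replicates. Whether the replicates were grown as separate cultures is not stated, and their spread may be technical. Read depth is unknown.

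REC-8 is the kleisin subunit of a meiotic cohesin, the ring-shaped complex that holds sister chromatids together from the last replication before meiosis until the meiotic divisions. In C. elegans it works in the germline beside the related kleisins COH-3 and COH-4, and the chromosomes are holocentric, so that no single centromere marks a place of special cohesion along them. The X chromosome differs from the autosomes in that it is largely silent in transcription through much of the germline, has its crossovers spread more evenly along its length, and carries its meiotic pairing centre near the left end, outside the interval described here. FEM-2, a protein phosphatase, acts in sex determination to direct cells towards male fate. No genome of the files' build was used here, so genes and DNA sequence at the regions were not analysed, and regions are named by their coordinates in WormBase build WS220.

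The regions were few and short in both parts. In the centre, 334 regions over 5.9 Mb gave 56.6 per Mb, and in the right arm 410 regions over 5.91 Mb gave 69.3 per Mb, a ratio of 0.817. The interval as a whole had 63.0 regions per Mb, against 61.0 in the left part of X and 74.9 on the autosomes. Regions covered 133 kb of the centre (2.25%) and 170 kb of the right arm (2.87%). The peak lists of the single libraries had the same order. Replicate 1 had 107 peaks in the centre (18.1 per Mb) and 141 in the right arm (23.8 per Mb), a ratio of 0.761. Replicate 2 had 178 peaks in the centre (30.2 per Mb) and 216 in the right arm (36.5 per Mb), a ratio of 0.826. The left part of X had 21.4 peaks per Mb in replicate 1, above the centre, and 30.3 in replicate 2, near the centre. The mean ratio was 0.793 ± 0.0462 (SD, n = 2), and both ratios lay further from 1 than from each other. An exact sign-flip test on 2 replicates cannot give a p below 0.5, and peaks are not replicates, so this and the later differences are given without a p.

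The lower density of the centre came in stretches and was not even along it. Counted in full bins of 500 kb, the centre held 14 to 44 regions per bin (median 28, n = 11 bins) and the right arm 20 to 43 (median 37, n = 11 bins). The densest full bin of the centre, 7900001 to 8400000, reached 44 regions (88 per Mb), more than any full bin of the right arm. This bin also held the most peaks of the centre in replicate 1 (19) and in replicate 2 (25). The shorter last bin of the centre, 11400001 to 11800000, next to the right arm, held 36 regions, or 90 per Mb. The sparsest bin of the centre, 10900001 to 11400000, held 14 regions, and the single libraries had 5 and 11 peaks there. The fewest peaks of a full centre bin lay elsewhere in them, with 3 from 8900001 to 9400000 in replicate 1 and 6 from 6900001 to 7400000 in replicate 2. In the right arm the densest bin was 13300001 to 13800000 with 43 regions and the sparsest 13800001 to 14300000 with 20, so that the extremes of the arm were neighbours. Replicate 1 had 15 and 7 peaks in these neighbouring bins and replicate 2 had 18 and 12, where 18 was the median of its right-arm bins and 27, from 15300001 to 15800000, the highest.

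**Figure D1:**
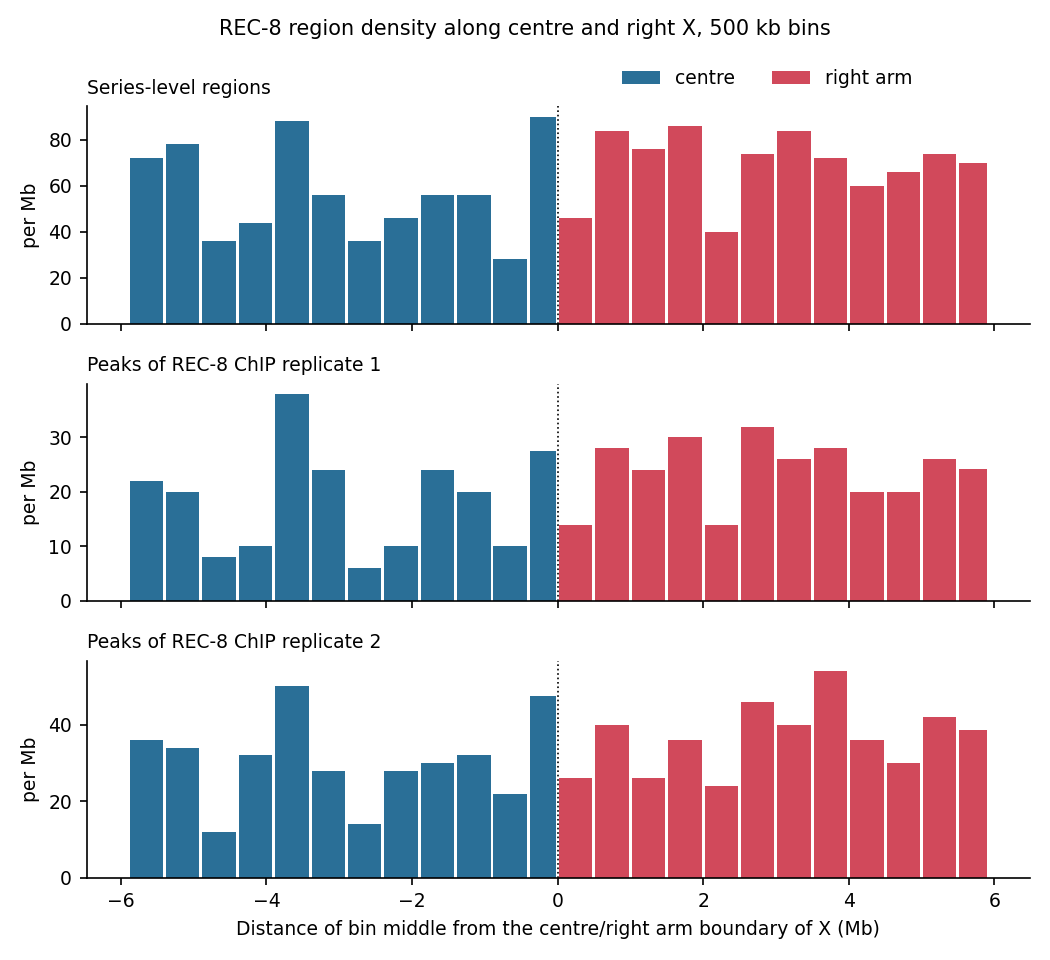
Density of series-level regions and of the peaks of each REC-8 ChIP replicate (per Mb, y axis) in bins of 500 kb, with a shorter last bin in each part, along the centre (blue) and right arm (red) of X. The x axis gives the distance of a bin from the boundary between the parts in Mb. The centre alternates between bins as low as 28 and as high as 88 per Mb among its full bins in the series-level list, and the right arm runs from 40 to 86.

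On the autosomes the corresponding comparison ran the other way in the series-level list, except that the parts of II were nearly equal. With each autosome divided into equal parts, the ratio of the central part over the right part was 0.817 on X, against 1.02 on II, 1.12 on III, 1.19 on IV, 1.33 on I and 1.52 on V. In replicate 2 it was 0.826 on X and 1.02 to 1.81 on the autosomes. In replicate 1 the autosomes were split, with 0.847 on IV and 0.851 on II beside 0.761 on X, and with 1.07, 1.26 and 1.31 on III, I and V. X thus had the lowest ratio of the 6 chromosomes in each list. In replicate 1 its distance from IV and II was small, and with a single X the order was not tested.

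**Figure D2:**
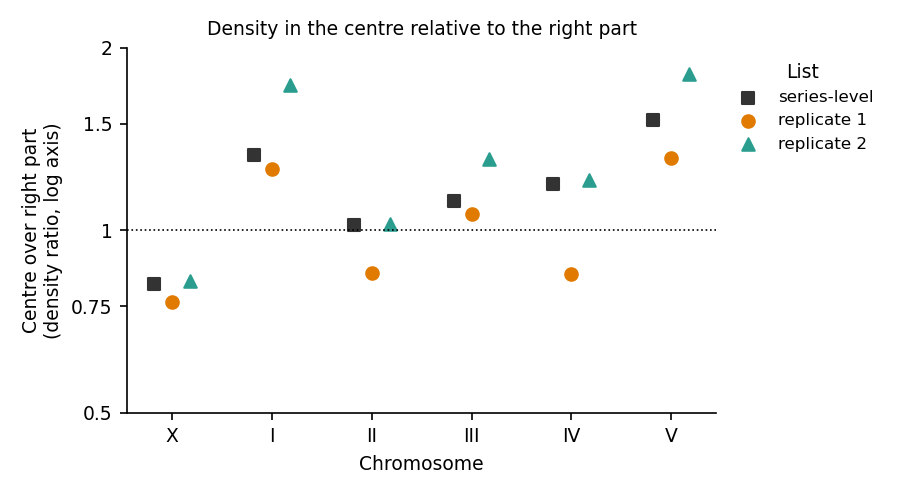
Density in the central part divided by density in the right part of each chromosome (y axis, log axis, dotted line at 1) for the series-level list (squares) and the REC-8 ChIP replicates 1 (circles) and 2 (triangles). X lies between 0.761 and 0.826, while V reaches 1.81 in replicate 2.

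Regions of the centre also had lower scores than those of the right arm. The score is the authors' own value for each region, its scale is not stated, and a higher score is taken here to mark a stronger region. In the series-level list the median was 6.85 in the centre (quartiles 4.02 and 14.0) and 8.33 in the right arm (quartiles 4.65 and 18.7), against 7.38 in the left part of X and 7.91 on the autosomes. As percentiles of the whole list, the median region stood at 43.9 in the centre and 52.5 in the right arm, a difference of -8.65 points. The difference had the same sign in each library, at -4.84 points in replicate 1 (median score 140 in the centre and 160 in the right arm) and -7.04 points in replicate 2 (150 and 181), with a mean of -5.94 ± 1.56 points (SD, n = 2). Within the upper 50% of the series-level list by score, the difference was -2.72 points. This cut was made on the score itself and leaves a narrower range of percentiles, so the 2 differences are not on a like footing. Lower percentiles in the centre were also found on some autosomes: the series-level difference was -8.84 points on II, -3.87 on V and -0.776 on IV, and 1.95 on III and 6.74 on I. In replicate 1, II (-8.26) and V (-7.70) differed more than X, and in replicate 2, V (-10.9), IV (-7.55) and II (-7.07) did. The ranges of X overlapped almost wholly, from 1.36 to 179.31 in the centre and from 1.43 to 185.48 in the right arm of the series-level list. Against the left part of X, the median percentile of the centre was lower in replicate 1 (43.0 and 57.3). In replicate 2 it was nearly the same (49.9 in the centre and 49.4 in the left part).

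In the series-level list, the deficit of the centre against the right arm was found in each score quartile but the lowest. In that score quartile (scores of 4.6 or less), the centre had 18.3 regions per Mb and the right arm 17.2, a ratio of 1.06. The ratio was 0.806 in the next quartile (74 regions in the centre and 92 in the right arm) and 0.800 in the one above it (83 and 104). In the highest quartile (scores of 16.85 and above) it had 11.7 per Mb, against 18.9 in the right arm, a ratio of 0.618. The ratio over the highest quartile was 0.466 in replicate 1 (20 peaks in the centre and 43 in the right arm) and 0.829 in replicate 2 (43 and 52). The single libraries thus differed in the size of this deficit. In the quartile below, the ratio was 1.08 in replicate 1 (27 peaks in the centre and 25 in the right arm) and 0.663 in replicate 2 (45 and 68), and in the lowest quartile it was 0.791 in replicate 1 and 0.911 in replicate 2. Of the highest 10% of the series-level list, the centre held 28 regions (8.38% of its regions, 95% Wilson interval 5.86 to 11.8%) and the right arm 38 (9.27%, interval 6.83 to 12.5%), beside 10.0% of all series-level regions, a value within both intervals. In replicate 1 the shares were 9.35% of centre peaks and 15.6% of right-arm peaks (22 of 141, interval 10.5 to 22.5%), the latter interval above 10.0%. In replicate 2 they were 10.1% and 13.4% (interval 9.51 to 18.6%).

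**Figure D3:**
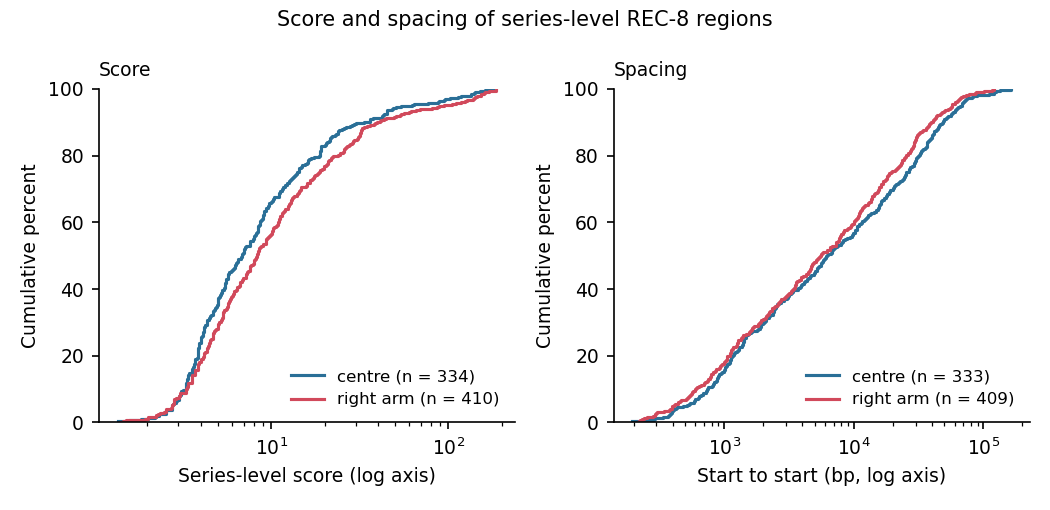
Cumulative percent of series-level regions (y axis) by score and by distance between the starts of neighbouring regions (x axes, log scale) in the centre (blue) and right arm (red). The score curve of the centre lies to the left through the middle of the range, with medians of 6.85 in the centre and 8.33 in the right arm, whereas the spacing curves nearly coincide up to their medians of 6174 bp in the centre and 5545 bp in the right arm.

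The strongest regions of the centre stood apart from one another. The region with the highest series-level score was X 7181296 to 7182265 (970 bp, score 179.31), with its nearest neighbour 11601 bp away. It was followed by 8035343 to 8037567 (2225 bp, 160.25), 11092839 to 11095208 (2370 bp, 150.91), 9464738 to 9466844 (2107 bp, 142.02) and 6295551 to 6297500 (1950 bp, 139.09). In the same order, their nearest neighbours, all weaker regions, lay 5992, 44, 635 and 145 bp away. All 5 of the strongest regions had the score of 3100 in both replicates. Many peaks of the replicate lists share this value, which therefore cannot order them. These regions were also the only centre regions at that score in both replicates. These 5 lay in 5 different bins of the centre, including the sparse bin from 10900001 to 11400000.

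The 5 highest regions of the right arm included 3 that were below that shared score in both replicates. The highest region, X 12521424 to 12522232 (809 bp), scored 185.48, the highest of the 744, with 2282.99 in replicate 1 and 1574.17 in replicate 2. Next to it in score, 16055642 to 16057588 (1947 bp, 185.45) and 14524486 to 14527180 (2695 bp, 171.83), had 3100 in both replicates. The region 17544064 to 17544754 (691 bp, 168.48) had 1858.14 in replicate 1 and 2068.55 in replicate 2. The region 16851809 to 16852291, only 483 bp wide, had a series-level score of 161.80, with 1537.98 in replicate 1 and 1559.96 in replicate 2. In all, 8 right-arm regions reached 3100 in both replicates, with series-level scores from 123.71 to 185.45.

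Over all scores, region width differed little between the parts. The median was 285.5 bp in the centre (quartiles 203 and 459 bp) and 290.5 bp in the right arm (quartiles 192 and 424.5 bp). In the single libraries it was 477 bp in the centre against 499 bp in the right arm for replicate 1, and 406.5 bp against 402 bp for replicate 2. The difference of -5.0 bp in the series-level list was smaller than the spread of the replicate differences (-8.75 ± 18.7 bp, SD, n = 2), and the replicates had opposite signs. Within the upper 50% by score, the difference was turned round to 38.5 bp, outside that spread. Regions of 1 kb or more made up 14 of 334 in the centre (4.19%, 95% Wilson interval 2.51 to 6.91%) and 26 of 410 in the right arm (6.34%, interval 4.36 to 9.13%), with 5.57% in the series as a whole. Both intervals included that background.

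A single region was much wider than all others of the interval. X 16929235 to 16939962 in the right arm was 10728 bp wide with a series-level score of 151.27. Replicate 1 had 3 peaks inside it, of 716 to 6727 bp, and replicate 2 had 4, of 265 to 6705 bp, and the highest peak of each scored 3100. The next widest of the right arm were 14524486 to 14527180 (2695 bp) and 15481919 to 15484063 (2145 bp, score 123.71), each met by 1 peak with a score of 3100 in either replicate. In the centre the widest region was 8019519 to 8023209 (3691 bp), which had a modest score of 43.34 and was met by 3 peaks of replicate 1 (scores 279.72 to 648.08) and 4 of replicate 2 (113.16 to 524.59). The other wide regions of the centre, at 11092839 and 8035343, belonged to its strongest.

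Spacing was uneven in both parts, with many close neighbours and a few long empty stretches. Starts of neighbouring regions lay a median of 6174 bp apart in the centre (quartiles 1421 and 25290 bp, 333 distances) and 5545 bp in the right arm (quartiles 1341 and 19450 bp, 409 distances), against 4266 bp on the autosomes. The difference of medians, 629 bp, was within the replicate spread, since it was 1270 bp in replicate 1 and -1207 bp in replicate 2. Within the upper 50% by score it was 2880 bp, outside that spread. The mean distances were 17600 bp in the centre and 14284 bp in the right arm, and the upper quartile differed more than the median. As distributions, the distances of the parts thus differed mainly at the long end. By count, the centre also had fewer short distances. A next region started within 5 kb for 149 of 333 centre regions (44.7%) and for 197 of 409 right-arm regions (48.2%). The share was 47.1% in the left part of X and 52.6% on the autosomes. The corresponding shares of peaks were 33.96% in the centre and 29.3% in the right arm for replicate 1, and 32.2% and 30.7% for replicate 2, so that in the single libraries the centre had the higher share. In the left part of X they were 28.8% in replicate 1 and 27.5% in replicate 2, and on the autosomes 30.2% and 37.8%.

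The longest distances held no peak in any list. In the centre they ran from the region at 6905619 to that at 7068285 (162666 bp between starts), from 10197310 to 10332026 (134716 bp) and from 7825699 to 7951429 (125730 bp). In the right arm they ran from 13797307 to 13917356 (120049 bp), from 15866137 to 15982957 (116820 bp) and from 12234403 to 12337894 (103491 bp). Both replicate lists had 0 peaks in each of these 6 stretches. Some ended at strong regions, such as 15982957 to 15983725 with a score of 135.62 and 7068285 to 7068711 with 77.16, and others lay between weak ones, such as 10197310 (4.13) and 10332026 (5.30). The lists hold only values above a minimum, so enrichment below it would not be seen.

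At the other extreme, regions formed runs in which each started within 5 kb of the next. Runs took in 208 of the 334 centre regions (62.3%) and 279 of the 410 right-arm regions (68.0%), and runs of 5 or more numbered 10 in the centre and 20 in the right arm. Runs were not counted outside the interval. The longest run of the centre had 14 regions from 11464150 to 11483208, within 19059 bp, with scores of 2.83 to 23.83. Of these, 4 were overlapped by peaks of both replicates and 3 by none. The longest of the right arm had 13 regions from 12509215 to 12522884, within 13670 bp, and it contained the highest-scoring region of the whole interval at 12521424. Of its other regions, 11 were overlapped by no replicate peak and scored between 1.43 and 8.33, and the 1463 bp region at its left end (score 12.97) was overlapped by both replicates. The median score was 4.72 in the run of the centre and 5.31 in that of the right arm, so the runs differed in their highest score and in their replicate support more than in their typical score. Where regions with a gap of at most 500 bp were joined into one, 278 remained in the centre (47.1 per Mb) and 335 in the right arm (56.6 per Mb).

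The median score rose with the distance to the nearest region in the right arm and followed no single order in the centre. In the centre, the 94 regions with a neighbour within 500 bp had a median score of 6.06, the 123 regions at 500 bp to 5 kb had 5.81 and the 75 regions at 5 to 20 kb had 8.86. In the right arm the medians were 6.21 for 121 regions within 500 bp, 8.33 for 166 regions at 500 bp to 5 kb and 9.80 for 92 regions at 5 to 20 kb. The most isolated regions, over 20 kb from any other, had a median of 6.28 in the centre (42 regions) and 10.9 in the right arm (31 regions), so that the medians of the parts differed most among isolated regions. Peaks of both replicates met 33 of the 94 close regions of the centre (35.1%), against 17.1%, 29.3% and 21.4% in its classes of growing distance. In the right arm they met 27.3% of the close regions, against 27.7%, 29.3% and 29.0%. The close regions made up 28.1% of all centre regions and 29.5% of all right-arm regions. They held 10 of the 28 centre regions in the highest 10% by score, and 9 of the 38 in the right arm. These counts lie above the close share in the centre and below it in the right arm. These groups of regions are small, and the same split was not made in the replicate lists.

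Support by the single libraries was judged by an overlap of at least 1 bp. Peaks of both replicates overlapped 85 of the 334 centre regions (25.4%, 95% Wilson interval 21.1 to 30.4%) and 115 of the 410 right-arm regions (28.0%, interval 23.9 to 32.6%), beside 29.1% of all series-level regions. The difference of -2.60 percentage points had a 95% interval of -8.90 to 3.83, for counting error only. Within the upper 50% by score it was 4.34 points, of opposite sign. The interval was made for all regions of both parts, so it does not measure the error of this smaller set. No replicate peak met 154 centre regions (46.1%) and 174 right-arm regions (42.4%), beside 44.6% in the series. Both counts were near the background. Peaks of replicate 2 alone met 81 centre regions (24.3%, interval 20.0 to 29.1%) and 92 right-arm regions (22.4%, interval 18.7 to 26.7%), both above the 18.6% of the series. Replicate 1 alone met 14 centre regions (4.19%, interval 2.51 to 6.91%) and 29 right-arm regions (7.07%, interval 4.97 to 9.97%), beside 7.65% in the series. Replicate 2 has the longer list. Regions of the same library are not independent, and the intervals do not measure replicate error.

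Support followed the score. Of the lowest score quartile, no replicate peak met 90 of 108 centre regions (83.3%) and 87 of 102 right-arm regions (85.3%), against 83.2% of that quartile in the whole list. Of the highest quartile, replicate 2 met all 69 centre regions and all 112 right-arm regions, against 96.9% of that quartile in the whole list. Replicate 1 met 65 of the 69 in the centre (94.2%, 95% Wilson interval 86.0 to 97.7%) and 95 of the 112 in the right arm (84.8%, interval 77.0 to 90.3%), against 92.1% in the whole list. The 17 right-arm regions of that quartile without a replicate 1 peak had series-level scores up to 34.62 and replicate 2 scores of 82.44 to 315.81, and the 4 in the centre had series-level scores up to 22.89. The highest of the right arm were 16024573 to 16024843 (34.62, replicate 2 score 239.24) and 17184384 to 17184601 (32.15, replicate 2 score 214.30). Regions met by both replicates had a median series-level score of 23.8 in the centre and 31.1 in the right arm. Regions met by none had medians of 4.185 in the centre and 4.595 in the right arm.

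**Figure D4:**
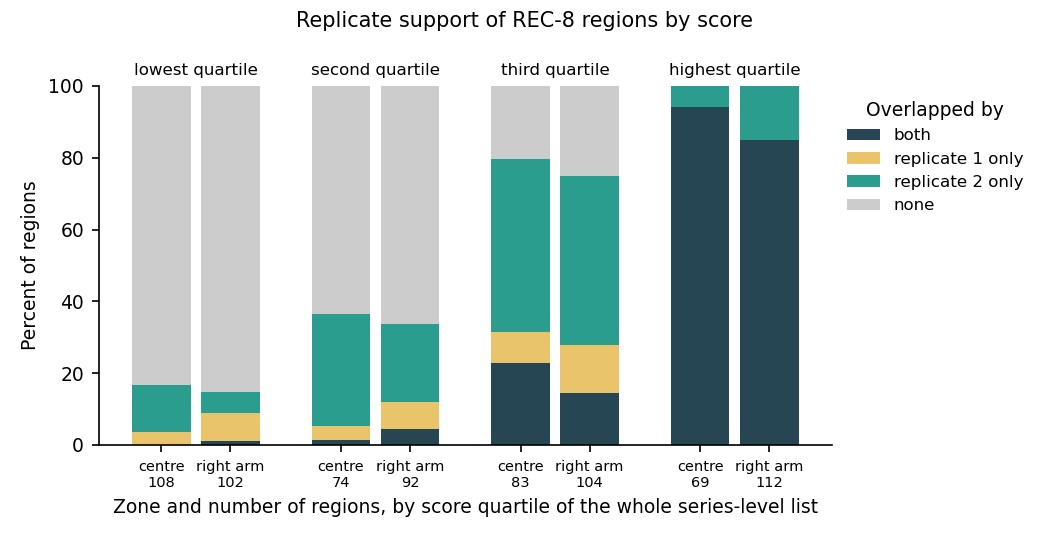
Percent of series-level regions (y axis) overlapped by peaks of both replicates, of 1 replicate alone or of none, for the centre (left bar) and right arm (right bar) within each score quartile of the whole list. In the highest quartile both replicates met 94.2% of centre regions and 84.8% of right-arm regions, and the remainder was met by replicate 2 alone.

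Regions without a peak in either library reached only moderate scores. The highest of the centre were 9150243 to 9150453 (14.29), 8026722 to 8026963 (13.49) and 7100312 to 7100520 (12.82), of which the first lay 35622 bp and the last 29016 bp from its nearest neighbour. Those of the right arm were 14476603 to 14476872 (13.00), 13995841 to 13996008 (12.51) and 17053945 to 17054330 (11.56). These 6 were 168 to 386 bp wide, and all but the last lay below the median of 287.5 bp over the interval. In the other direction, nearly every replicate peak of the interval was on the series-level list. Of the 248 peaks of replicate 1, 3 met no region (scores 52.49 to 81.01, all in the centre), and of the 394 of replicate 2, 8 met none (scores 51.51 to 124.85, with 6 in the centre and 2 in the right arm).

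In the interval, 206 of the 248 peaks of replicate 1 and 208 of the 394 of replicate 2 met a peak of the other library. These nearly equal counts are a smaller share of the longer replicate 2 list. Shares over the whole lists were not computed. Replicate 2 had a peak at 89 of the 107 centre peaks of replicate 1 (83.2%, 95% Wilson interval 74.97 to 89.1%) and at 117 of its 141 right-arm peaks (83.0%, interval 75.9 to 88.3%). Replicate 1 had a peak at 89 of the 178 centre peaks of replicate 2 (interval 42.7 to 57.3%) and at 119 of its 216 right-arm peaks (55.1%, interval 48.4 to 61.6%). Among the peaks of replicate 1 absent from replicate 2, the highest was 9184893 to 9188733 in the centre, 3841 bp wide with a score of 376.66. It covered only 2 weak series-level regions, with scores of 4.49 and 1.57. A peak of the same kind in the right arm, 11886319 to 11888305 (1987 bp, 235.97), also covered 2 regions, which scored 4.75 and 2.02. The highest peak of replicate 2 absent from replicate 1 was narrower, 14946337 to 14947055 in the right arm (719 bp, 315.81).

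Across the regions found in both libraries, the peak scores of the replicates rose together. Spearman's rho was 0.727 over the 85 centre regions and 0.627 over the 115 right-arm regions, and the series-level score had a rho of 0.730 with replicate 1 and 0.801 with replicate 2 in the centre, and of 0.702 and 0.840 in the right arm. These are descriptions across regions of the same pair of libraries. Some neighbouring regions share a peak, and the series-level list is not independent of the replicate lists. The right arm held 5 regions that were in the highest score quartile of replicate 1 and the lowest of replicate 2, and the centre held 0. Of these 5, 3 lay under a single peak of replicate 1, 15807029 to 15811274 (4246 bp, score 664.47, replicate 2 score 78.4), with series-level scores of 5.25, 5.97 and 6.03. The others were 16100194 to 16101219 (833 in replicate 1 and 64.6 in replicate 2) and 17419609 to 17421031 (871.33 and 62.81). The reverse was found for 2 centre regions, 10188023 to 10188821 (81.44 in replicate 1 and 520.83 in replicate 2) and 11465088 to 11465518 (82.61 and 338.42), and for 0 in the right arm. In the series as a whole, 21 and 22 of the 2121 regions met by both replicates fell into these classes.

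**Figure D5:**
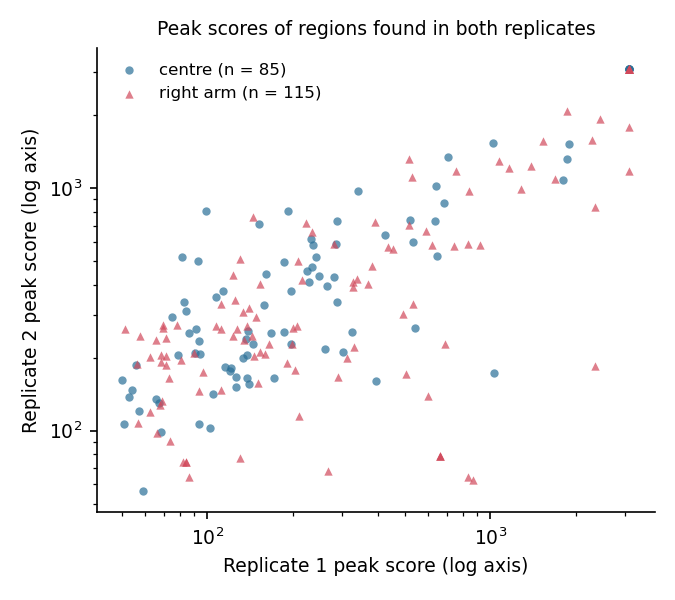
Highest overlapping peak score in REC-8 ChIP replicate 1 (x axis) and replicate 2 (y axis), both on log axes, for the 85 centre regions (circles) and 115 right-arm regions (triangles) met by both replicates. The 13 regions at 3100 in both lie at the upper right, and the right-arm regions at the lower right, with 664.47 to 871.33 in replicate 1 and 62.81 to 78.4 in replicate 2, stand apart from the trend.

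The ends of both parts fell in gaps between regions. The last region left of the start at 5900000 was 5845485 to 5846234 (score 6.77, met by replicate 1 alone), and the first inside it was 5937030 to 5937898 (21.33, met by both). The last region of the centre was 11797980 to 11798269 (10.37, met by replicate 2 alone) and the first of the right arm 11872171 to 11872317 (4.68, met by none). At the right end of the chromosome the last region, 17714392 to 17714614, scored 7.24, was met by no replicate peak and lay 29291 bp beyond its neighbour.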

How the data were processed

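REC-8 ChIP and input libraries were grouped and numbered by their titles. Reads were handled with BWA and build ce10, per the submitters' processing notes, and coordinates are in WS220, per the file headers. The authors deposited 1 peak list for each ChIP library (source column MACS) and 1 for the series (source column MACS v2), each with a score per peak. Caller settings, pooling and the use of input are not stated in the labels or headers used here. Scores of different lists are on different scales and were used only within a list or by rank. The input libraries had no list and were not analysed here.

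Regions were assigned by midpoint, the last peak end in any list (17714614) stood for the end of X, and spacing was taken between starts within a part. Peaks overlapped from 1 bp, and the highest peak score was taken. Shares have 95% Wilson intervals, which cover counting error only; depth is unknown. The code was tested on simulated lists. No test was run over regions. Members, lists and quantities were chosen with earlier results of these data known. The 5 highest, 3 widest and 3 highest unsupported regions, the 3 longest distances, the extreme bins and the longest run of each part were named by rule; replicate peaks and discordant regions were chosen after their values were seen. Alternatives moved the boundary, score limit, overlap and joining of close regions, or left out a replicate. Python 3.11.15, numpy 2.4.6, pandas 2.3.3, scipy 1.17.1 and matplotlib 3.10.9 were used.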

Additional observations from a re-analysis of the deposited data

How the results depend on the processing

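Each alternative value was set against its main value plus or minus the SD of the replicates (for the support share, against its 95% interval). For the median percentile, this spread of -10.2 to -7.09 points held neither replicate value, -4.84 and -7.04. Of 26 alternative values, 20 stayed within the spread or interval and 6 did not. All 6 came from keeping the upper 50% by score. The spreads and the interval were made from the full lists, so they do not measure the error of such a smaller set. In the series-level list the cut gave a density ratio of centre over right arm of 0.705 and a difference in median percentile of -2.72 points. The percentile difference was bound to a narrower range, because the cut was made on the score itself. The differences were 38.5 bp in median width, 2880 bp in median spacing and 4.34 percentage points in the share met by both replicates. With the cut, the width and share differences changed sign. In the replicate lists the cut gave a mean density ratio of 0.714. Moving the boundary by 500 kb left the series-level density ratio at 0.785 and 0.780. Leaving out a replicate gave density ratios from 0.761 to 0.826 and share differences from -5.48 to -0.787. These density ratios had to stay within the replicate spread, which was made from the same 2 values. Their place among the 20 therefore carries no weight. No paired analysis was possible because the input libraries, which share replicate numbers with the ChIP libraries, had no list here. With 2 libraries of unknown depth, the replicate spread itself is poorly known.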
